A study of Homo sapiens with 4 samples.

Results

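Expression of 9 genes of MHC class I antigen presentation was described in MDA-MB-231 cells, a human triple-negative breast cancer line, after CTGF knockdown and kahweol treatment. The genes were taken by symbol from the deposited table of 35993 genes and were the heavy chains HLA-B, HLA-C, HLA-E and HLA-F, the light chain B2M, the peptide transporter subunits TAP1 and TAP2, tapasin (TAPBP) and the aminopeptidase ERAP1. All 9 were among the 16599 genes whose mean count over the libraries reached 10. On GRCh37, the build of the files, B2M lies at chr15:45003715-45011075 and ERAP1 at chr5:96096514-96149848, and the other 7 lie in the MHC on chromosome 6, from HLA-F (chr6:29691117-29695073) to TAPBP (chr6:33267471-33282164). Other classical class I genes were not analysed here.

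Class I molecules show peptides from proteins made inside the cell to CD8+ T cells, and natural killer cells read the level of class I through inhibitory receptors. Proteasomes cut the proteins, the TAP1/TAP2 transporter moves the peptides into the endoplasmic reticulum, ERAP1 trims them there, and tapasin with its partners loads them onto a heavy chain bound to B2M. In breast and other carcinomas, low class I expression is a known route by which tumor cells escape T cells, and interferons raise most genes of this pathway through NLRC5, IRF and STAT factors.

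There were 4 RNA-Seq libraries, 1 per condition, all from the same cell line. The siControl cells received a negative control siRNA and no kahweol, and the siControl + kahweol cells received the same siRNA and kahweol, a diterpene of coffee, at 50 µM for 48 h. The siCTGF cells received an siRNA against CTGF (gene symbol CCN2) without kahweol, and the siCTGF + kahweol cells received that siRNA and the same kahweol treatment. The comparisons addressed which transcripts moved with loss of CTGF, with kahweol, and with kahweol when CTGF was already reduced.

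Total estimated counts per library ranged from 44781516 to 59129784. Counting error was largest for HLA-F, which had 367 to 1147 counts per library, and smaller for the other members. CCN2 stood at 159 CPM (TMM-scaled counts, set to the size of the library) in siControl, 186 in siControl + kahweol, 63.6 in siCTGF and 31.8 in siCTGF + kahweol cells, which placed both siCTGF libraries below both siControl libraries. VIM, a mesenchymal gene that marks this line, lay between 2548 and 3254 CPM, and ESR1, the estrogen receptor that the line lacks, had at most 6 counts in a library. Of the 9 markers listed for the line, VIM, AXL and the epithelial gene KRT18 were the most abundant. Of 12 leukocyte markers, 4 had 0 counts in every library, which allows up to 0.0670 CPM in the shallowest. The T-cell gene CD2 and the natural killer cell gene NKG7 were among these 4, and PTPRC, which encodes CD45, had 0 to 6 counts. On the other side, 5 of the 12 reached a mean count of 10, and CD68, CD8A and CD14 were the most abundant of the list. The summed leukocyte markers came to 48.4, 44.0, 49.2 and 64.5 CPM in siControl, siControl + kahweol, siCTGF and siCTGF + kahweol cells, most of it CD68 (40.6 to 60.5 CPM), a lysosomal gene that cancer cells also express, and their part in the values below was not tested.

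With 1 library per condition, no difference between a pair of libraries had a replicate check. Intervals beside such differences are 95% exact binomial intervals that cover counting error only. Tests came from an additive fit in edgeR over all 4 libraries, in which the kahweol effect compared 2 libraries with 2 and the siRNA was a covariate. That fit left 1 residual degree of freedom, and nothing in the labels says that the cultures were repeated. Each siRNA was a single reagent, and the untreated cells are not said to have received the kahweol solvent, so kahweol and solvent cannot be told apart. In bulk RNA, fewer cells that express a gene and less RNA per cell cannot be told apart either.

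The start regions of the members that passed the kahweol test are shown first, because factors that act there control this pathway. RefSeq windows of 300 bases (250 before the start site, 50 from it, GRCh38.p14) were found for 8 of the 9 members, HLA-E not among them. Capitals mark matches on either strand to 5 motifs, which were the interferon-stimulated response element (ISRE, GAAANNGAAA), the STAT site (GAS, TTCNNNGAA), CCAAT, the CRE half-site TGACG and an NF-kappaB site. Overlapping matches run together.
B2M (chr15:44711267-44711566, plus strand): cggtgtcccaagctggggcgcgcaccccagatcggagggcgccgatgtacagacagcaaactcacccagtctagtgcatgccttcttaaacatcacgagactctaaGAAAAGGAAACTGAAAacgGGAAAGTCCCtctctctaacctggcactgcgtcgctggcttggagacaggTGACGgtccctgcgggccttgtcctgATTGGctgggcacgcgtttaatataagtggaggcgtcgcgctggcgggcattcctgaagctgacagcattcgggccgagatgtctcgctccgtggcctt
HLA-B (chr6:31357130-31357429, minus strand): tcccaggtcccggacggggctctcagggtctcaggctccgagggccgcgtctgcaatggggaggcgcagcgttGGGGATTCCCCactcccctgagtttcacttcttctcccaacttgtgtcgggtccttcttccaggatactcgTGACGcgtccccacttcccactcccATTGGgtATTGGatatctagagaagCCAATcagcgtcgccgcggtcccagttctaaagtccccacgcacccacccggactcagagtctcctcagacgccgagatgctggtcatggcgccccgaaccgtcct
HLA-F (chr6:29723184-29723483, plus strand): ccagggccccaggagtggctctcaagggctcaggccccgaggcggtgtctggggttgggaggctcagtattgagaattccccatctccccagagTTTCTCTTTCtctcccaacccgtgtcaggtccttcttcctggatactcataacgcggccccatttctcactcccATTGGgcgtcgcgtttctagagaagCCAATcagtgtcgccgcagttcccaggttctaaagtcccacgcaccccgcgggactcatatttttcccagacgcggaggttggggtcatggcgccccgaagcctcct
TAP2 (chr6:32838690-32838989, minus strand): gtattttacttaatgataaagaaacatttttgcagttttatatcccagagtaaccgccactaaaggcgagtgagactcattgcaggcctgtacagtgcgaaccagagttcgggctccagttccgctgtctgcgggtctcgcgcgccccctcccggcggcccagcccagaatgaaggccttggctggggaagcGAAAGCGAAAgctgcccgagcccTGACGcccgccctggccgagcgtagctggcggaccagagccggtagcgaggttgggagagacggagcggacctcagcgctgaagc
The B2M window held a pair of overlapping ISRE matches beside an NF-kappaB match, with a CRE half-site and a CCAAT match nearer the start. In the HLA-B window there were CCAAT, CRE half-site and overlapping NF-kappaB matches and no ISRE match in this form. HLA-F had 1 ISRE match and 2 CCAAT matches without an NF-kappaB or CRE half-site match. TAP2 had 1 ISRE match and 1 CRE half-site match, both within 58 bases of the start. Of the 8 members with a window, 6 held an ISRE match, 6 a CCAAT match, 6 an NF-kappaB match, 4 a CRE half-site match and 1 a GAS match. TAP1 and ERAP1 had 2 windows each, which made 10 windows in all, and a member was counted if any of its windows matched. The shares that follow are per window instead. Among all 35116 RefSeq windows, the shares with a match were 3.57% for ISRE, 34.6% for CCAAT, 9.23% for NF-kappaB, 24.6% for the CRE half-site and 7.66% for GAS. These matches are letters in a reference sequence, and no binding was measured in this study.

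Levels between genes were compared in TPM, which divides by transcript length. B2M was the most abundant member, with a mean TPM of 694 over the 4 libraries and a range of 605 to 768. HLA-B followed at 522 (497 to 560), HLA-C at 223 (213 to 228), HLA-E at 175 (150 to 202) and TAP1 at 54.9 (50.9 to 59.8). Each of these ranges lay apart from the next lower one. TAPBP at 32.7, TAP2 at 26.8, ERAP1 at 22.6 and HLA-F at 19.7 were not separated from their neighbors in this order, since those ranges overlapped. The TAPBP range (27.7 to 39.0) did lie above those of ERAP1 (21.1 to 24.4) and HLA-F (11.5 to 27.6). Of 13922 protein-coding genes kept, 131 had a higher mean TPM than B2M, 179 than HLA-B and 5727 than HLA-F. All 4 transporter, loading and trimming genes sat below B2M, HLA-B, HLA-C and HLA-E, and TAP1 and HLA-F did not overlap, with HLA-F the lower.

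**Figure D1:**
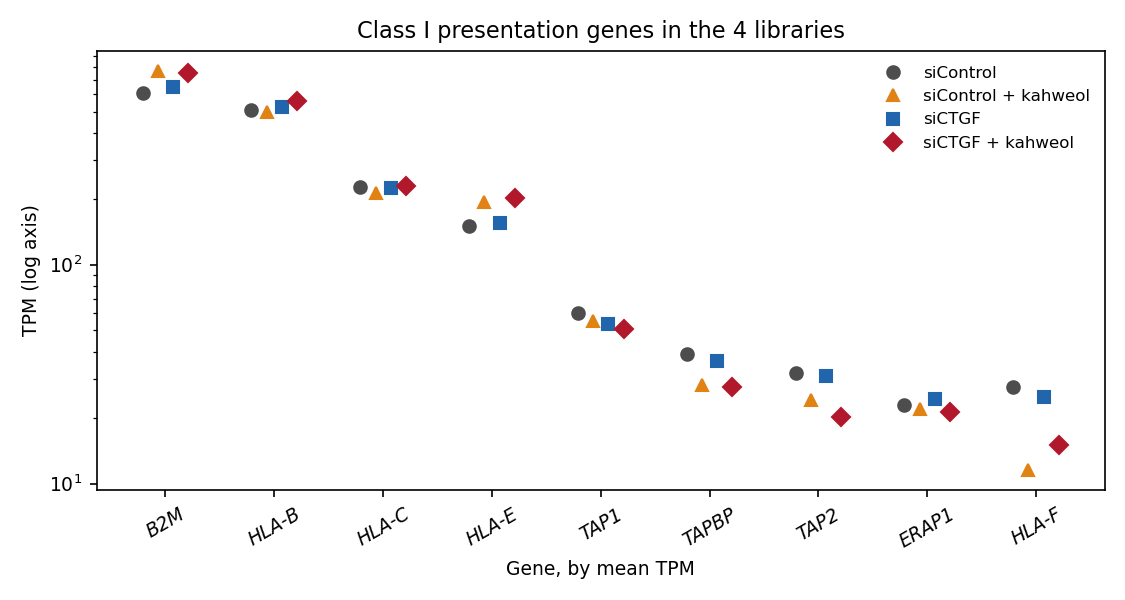
TPM of the 9 members (log axis), ordered by mean; each point is 1 library, and there are no error bars because each condition had 1 library. B2M and HLA-B lie near the top in all libraries, and HLA-F has the widest range, from 11.5 in siControl + kahweol to 27.6 in siControl cells.

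The kahweol comparison gave the clearest differences. In the additive fit, 5 of the 9 members passed an adjusted p of 0.05, against 46.6% of all 16599 genes tested, so the share of members was close to the background. HLA-E, B2M and HLA-B rose and HLA-F and TAP2 fell, while HLA-C, TAP1, TAPBP and ERAP1 did not pass. Over single pairs of libraries, 2 members exceeded a fold of 1.3 and 1 lay under 0.7 in siControl cells, against 28.1% and 26.3% of all genes. In siCTGF cells, 2 members exceeded 1.3 and 0 lay under 0.7, against 28.4% and 24.2%. Both counts above 1.3 were HLA-E and B2M, and 20.7% of all genes exceeded 1.3 in both kahweol comparisons. No member was under 0.7 in both, as 18.2% of all genes were. The median log2 fold change of the members was 0.14 in siControl and 0.19 in siCTGF cells, beside -0.02 and -0.00 over all genes tested.

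All values in CPM and all folds use TMM scaling, which centers most genes near no change. Scaling to total counts moved the kahweol median of all genes to -0.15 in both siRNA backgrounds, and the authors' TPM moved it to -0.17 and -0.18 on the log2(TPM + 1) scale. With TMM, 3805 genes rose and 3922 fell with kahweol, whereas with total counts 2879 rose and 5159 fell. Relative to the median of all genes under the same scaling, HLA-B, HLA-C, HLA-E, B2M and TAP1 stayed higher and HLA-F, TAP2 and TAPBP lower in both kahweol comparisons, under TMM, DESeq2 size factors, total counts and log2(TPM + 1). ERAP1 stayed higher with the exception of log2(TPM + 1) in siCTGF cells, at -0.02 from the median. Measured from 0 instead, HLA-B, HLA-C, TAP1 and ERAP1 were below it with TPM in siControl cells, as was the median of all genes. HLA-E, B2M and HLA-F passed the kahweol test in all 8 versions of the additive fit that were run.

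**Figure D2:**
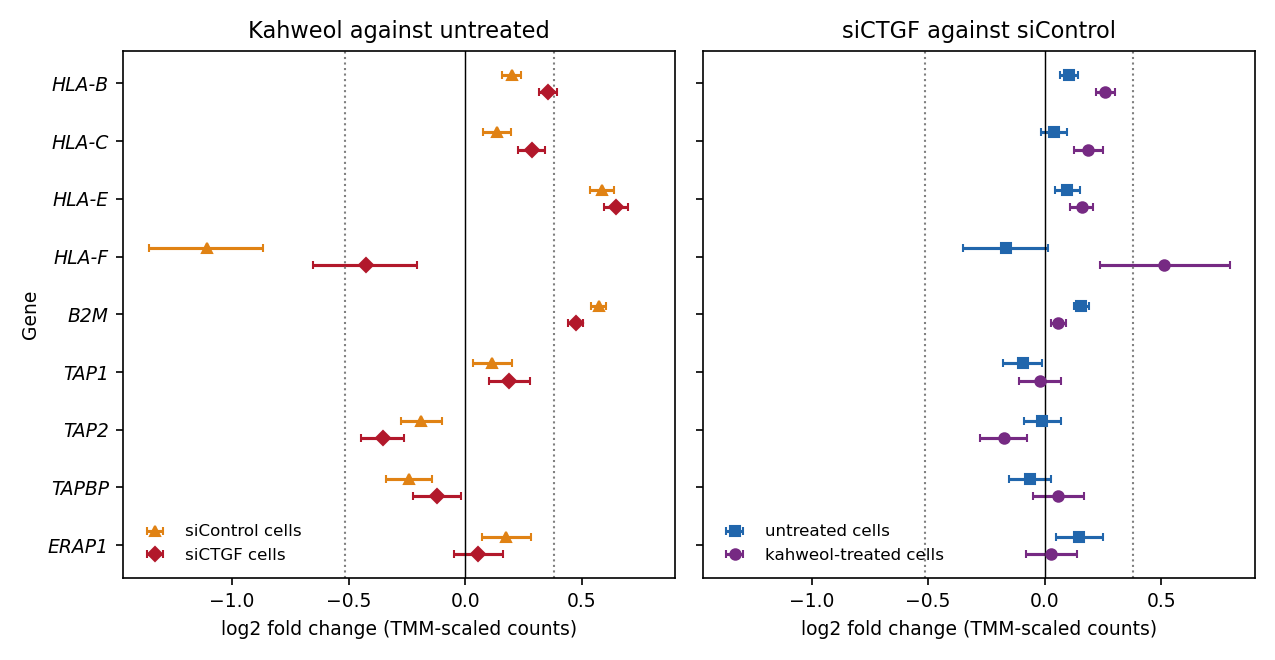
Log2 fold changes of TMM-scaled counts for kahweol against untreated (left) and siCTGF against siControl (right), 1 library against 1. Bars are 95% counting intervals and dotted lines mark folds of 1.3 and 0.7. HLA-E and B2M lie right of the upper line in both kahweol comparisons, and HLA-F has the widest intervals.

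Among the heavy chains, HLA-E showed the largest increase. HLA-E presents peptides cut from the leader sequences of other class I chains and binds the NKG2A receptor of natural killer cells. It stood at 185 CPM in siControl, 278 in siControl + kahweol, 198 in siCTGF and 310 in siCTGF + kahweol cells. Both kahweol libraries were above both untreated libraries. The log2 fold change was 0.59 (0.53 to 0.64) in siControl and 0.65 (0.60 to 0.70) in siCTGF cells. In the additive fit HLA-E rose by 0.62 ± 0.07 (SE, 2 libraries against 2, edgeR adjusted p = 0.000397), and with total counts the estimate was 0.47 (edgeR adjusted p = 0.000563).

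HLA-B, a classical heavy chain that presents peptides to CD8+ T cells, stood at 378, 433, 406 and 519 CPM in siControl, siControl + kahweol, siCTGF and siCTGF + kahweol cells. The kahweol libraries were again the higher pair, with the siCTGF + kahweol library highest. HLA-B rose by 0.28 ± 0.07 on the log2 scale (edgeR adjusted p = 0.0135). With total counts the estimate was 0.13 (edgeR adjusted p = 0.174) and without the siRNA covariate it was 0.28 (edgeR adjusted p = 0.0664). HLA-B passed in the other 5 alternative versions of the fit.

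HLA-C, the other classical chain measured and a ligand of killer immunoglobulin-like receptors, followed the same order at 169, 186, 174 and 212 CPM. Its fold changes were 0.14 in siControl and 0.28 in siCTGF cells on the log2 scale, with the additive estimate at 0.21 ± 0.08 (edgeR adjusted p = 0.0587). HLA-C passed in limma-voom alone (adjusted p = 0.0457), so a change was not shown firmly.

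HLA-F, a nonclassical chain found largely inside the cell, differed from the other heavy chains. Its levels were 18.4 CPM in siControl, 8.5 in siControl + kahweol, 16.3 in siCTGF and 12.1 in siCTGF + kahweol cells. Both kahweol libraries were the lower ones, and the siControl + kahweol library was lowest. The log2 fold change was -1.11 (-1.36 to -0.87) in siControl and -0.43 (-0.65 to -0.21) in siCTGF cells, and the difference between these values was not tested across cultures. HLA-F fell by 0.77 ± 0.18 on the log2 scale in the additive fit (edgeR adjusted p = 0.010), and this call held with DESeq2, limma-voom, total counts and no covariate. The end of HLA-F overlaps HLA-F-AS1 on the opposite strand over 696 bases, and HLA-F-AS1 had 146, 97, 93 and 81 counts against 1147, 367, 884 and 539 for HLA-F. The strand setting of the counting is not given in the sources used here, so the part of shared reads was not tested.

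Reads from one heavy chain can also be placed on another. In the reference transcripts (GENCODE 29), 0% of the 100-base windows of HLA-B and of HLA-F, 0.230% of those of HLA-C and 0.600% of those of HLA-E were found in another HLA gene. The alleles of this cell line may differ from the reference, and their effect on the counts was not tested. Summed as a single feature, the 4 HLA genes gave a log2 fold change with kahweol of 0.27 in siControl and 0.41 in siCTGF cells.

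B2M, the light chain that all class I heavy chains need to reach the surface, was also higher with kahweol. It stood at 492 CPM in siControl, 731 in siControl + kahweol, 548 in siCTGF and 761 in siCTGF + kahweol cells. The kahweol libraries lay clearly above the untreated ones. The log2 fold change was 0.57 (0.54 to 0.61) in siControl and 0.47 (0.44 to 0.51) in siCTGF cells. B2M rose by 0.52 ± 0.06 in the additive fit (edgeR adjusted p = 0.000508), and with total counts the estimate was 0.38 (edgeR adjusted p = 0.00136).

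The transporter subunits differed in whether they passed the test. TAP1 stood at 85.0, 92.1, 79.6 and 90.7 CPM in siControl, siControl + kahweol, siCTGF and siCTGF + kahweol cells, and its additive estimate of 0.15 ± 0.09 did not pass (edgeR adjusted p = 0.207). TAP2 stood at 88.7, 77.8, 88.1 and 68.9 CPM, with both kahweol libraries the lower pair. TAP2 fell by 0.27 ± 0.10 on the log2 scale, at the edge of the threshold (edgeR adjusted p = 0.0497). The adjusted p was 0.0644 in DESeq2 and 0.0743 in edgeR without the covariate, and 0.00666 in edgeR with total counts. In the reference transcripts, 31.9% of the 100-base windows of TAP2 also occur in another annotated gene, and TAP1 overlaps PSMB8-AS1 on the opposite strand over 1292 bases (24 to 97 counts per library), and the part of such reads was not tested. TAP1 and TAP2 form a heterodimer, and the difference between their kahweol effects was not tested.

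TAPBP encodes tapasin, which bridges the transporter and the heavy chain. It stood at 70.7 CPM in siControl, 59.9 in siControl + kahweol, 67.8 in siCTGF and 62.3 in siCTGF + kahweol cells. The kahweol libraries were lower, but the additive estimate of -0.18 ± 0.10 did not pass (edgeR adjusted p = 0.165). With total counts it did, at -0.32 (edgeR adjusted p = 0.0241).

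ERAP1, which trims peptides to the length that class I binds, was nearly level at 53.8, 60.8, 59.6 and 62.0 CPM. Its additive estimate was 0.12 ± 0.10 (edgeR adjusted p = 0.359), and it was -0.03 with total counts, a scaling whose median of all genes was -0.15 in both kahweol comparisons. ERAP1 overlaps CAST on the opposite strand over 13874 bases, and CAST had 12232 to 20076 counts per library against 2625 to 3362 for ERAP1. That overlap bears on the ERAP1 level if strand was not used, which was not tested.

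**Figure D3:**
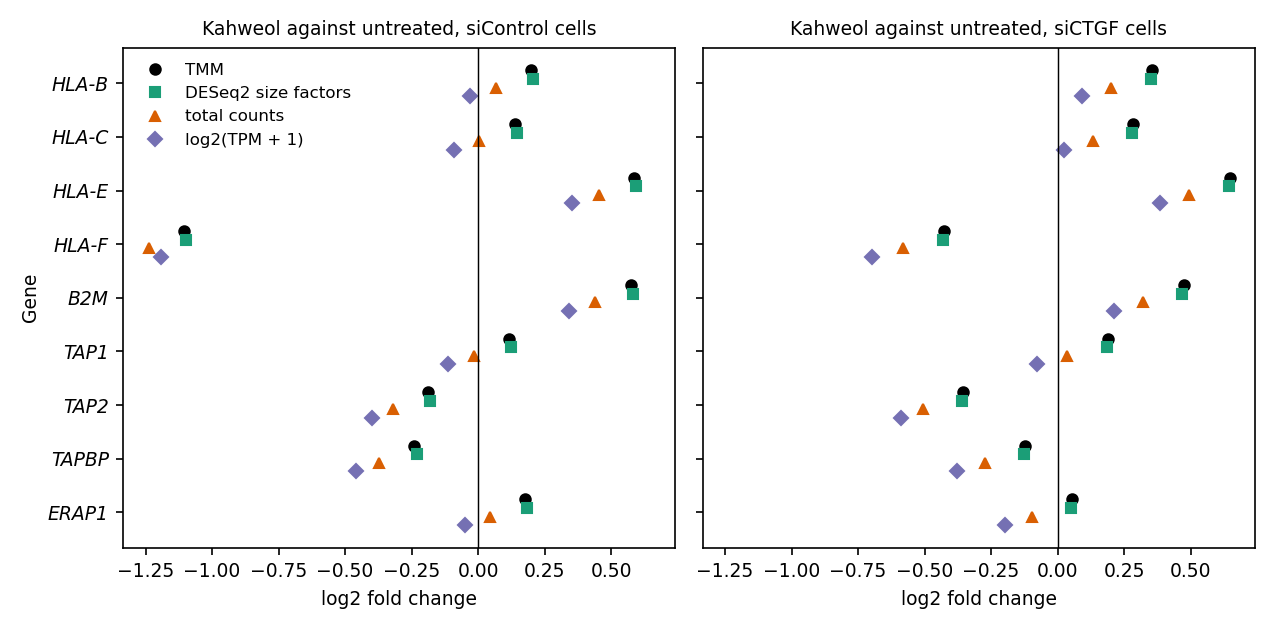
Log2 fold changes of the members for kahweol against untreated in siControl (left) and siCTGF cells (right) under 4 scalings, 1 library against 1. HLA-E and B2M stay right of 0 and HLA-F, TAP2 and TAPBP left of 0 under all 4, while HLA-B and HLA-C in siControl cells move from 0.20 and 0.14 with TMM to -0.03 and -0.09 with log2(TPM + 1), where the median of all genes is -0.17.

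CTGF knockdown gave no called member. In the additive fit 0 of 9 members passed, against 0.127% of all genes, and the smallest adjusted p was 0.44, for HLA-B (0.18 ± 0.07, edgeR). HLA-B was also the only member with an unadjusted p under 0.05, and DESeq2, limma-voom and the other settings called 0 members. In untreated cells 0 members exceeded a fold of 1.3 and 0 lay under 0.7, against 9.63% and 8.99% of all genes. In kahweol-treated cells 1 member exceeded 1.3 and 0 lay under 0.7, against 14.7% and 7.83%. That member was HLA-F, with a log2 fold change of 0.51 (0.24 to 0.79), whereas in untreated cells its value was -0.17 (-0.35 to 0.01). No member exceeded 1.3 or lay under 0.7 in both siCTGF comparisons, as 3.25% and 2.24% of all genes did. The median of the members was 0.04 in untreated and 0.06 in kahweol-treated cells, beside -0.01 and 0.00 over all genes.

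The size of the knockdown comparisons can be read from single members. B2M differed by 0.16 (0.12 to 0.19) in untreated and 0.06 (0.03 to 0.09) in kahweol-treated cells on the log2 scale, and HLA-E by 0.10 and 0.16. TAP1 differed by -0.09 and -0.02, TAPBP by -0.06 and 0.06, and ERAP1 by 0.15 and 0.03. TAP2 differed by -0.01 and -0.18, HLA-B by 0.10 and 0.26, and HLA-C by 0.04 and 0.19. For HLA-E and B2M these values were smaller than the kahweol differences in the same libraries. For HLA-B and HLA-C the siCTGF values in kahweol-treated cells, 0.26 and 0.19, were larger than the kahweol values in siControl cells, 0.20 and 0.14. The kahweol and siCTGF comparisons share libraries, so their values are given side by side and were not correlated.

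Related genes of the pathway were counted from lists, each to be read beside all genes tested, of which 22.9% rose and 23.6% fell with kahweol in the additive fit. List counts given with total counts are to be read beside that scaling instead, under which 2879 of the 16599 genes rose and 5159 fell. Of 6 peptide loading partners, 4 rose and 1 fell. CANX, the lectin chaperone that holds new heavy chains, rose by 0.83 ± 0.05 (edgeR adjusted p = 6.34e-05), and PDIA3, the disulfide isomerase bound to tapasin, by 0.58 ± 0.08 (edgeR adjusted p = 0.000714). CALR, the chaperone of the loading complex, rose by 0.20 ± 0.06 (edgeR adjusted p = 0.0335). With total counts, 2 of the 6 rose and 1 fell. Like B2M and HLA-E, CANX was higher in both kahweol libraries, at 2436 and 2552 CPM against 1380 and 1424.

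Proteasome subunits supply the peptides. Of 5 immunoproteasome genes, 0 rose and 3 fell, and all 3 constitutive catalytic subunits rose, again beside 22.9% higher and 23.6% lower over all genes. The difference between the groups of subunits was not tested. PSMB10 fell by 0.74 ± 0.10 and PSMB9 by 0.68 ± 0.16 on the log2 scale (edgeR adjusted p = 0.000880 and 0.0105), both of them interferon-inducible catalytic subunits. Their constitutive counterparts PSMB7 and PSMB6 rose by 0.68 ± 0.07 and 0.49 ± 0.08 (edgeR adjusted p = 0.000235 and 0.00165). PSMB8, the remaining inducible catalytic subunit, fell by 0.27 ± 0.09 (edgeR adjusted p = 0.0348), while the activator subunits PSME1 and PSME2 were at -0.25 and -0.05 and did not pass. With total counts, 4 of the 5 immunoproteasome genes fell and 2 of the 3 constitutive subunits rose, beside 5159 lower and 2879 higher over all genes. PSMB9 and PSMB8 lie beside TAP1 and TAP2 in the class II region of the MHC.

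Of 17 factors that act on class I promoters, 5 rose and 5 fell, in a fit that called 46.6% of all genes. NLRC5, the class I transactivator, fell by 0.55 ± 0.12 (edgeR adjusted p = 0.00621), and RFXANK and RFX5, subunits of the RFX complex that NLRC5 needs, by 0.70 ± 0.09 and 0.45 ± 0.10 (edgeR adjusted p = 0.000686 and 0.00878). IRF1, which binds ISRE sites, rose by 0.69 ± 0.10 (edgeR adjusted p = 0.00118). NFKB1 was at -0.14 and did not pass. With total counts, 2 of the 17 rose and 6 fell, under a scaling in which falls outnumbered rises over all genes too.

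Interferon-stimulated genes were mostly higher with kahweol. Of 13 tested, 8 rose and 0 fell, and 7 rose with total counts. IFIT2 rose by 1.67 ± 0.12 (edgeR adjusted p = 7.28e-05), RSAD2, an antiviral enzyme, by 2.49 ± 0.29 (edgeR adjusted p = 0.000390) and IFI44 by 0.89 ± 0.11 (edgeR adjusted p = 0.000468). ISG15, a ubiquitin-like modifier, rose by 0.62 ± 0.09 (edgeR adjusted p = 0.00103). Of 11 interferon receptor and JAK pathway genes tested, 3 rose and 1 fell, with JAK2 at 0.76 ± 0.13 and IFNAR1 at 0.68 ± 0.10 (edgeR adjusted p = 0.00244 and 0.000936). With total counts, 2 of the 11 rose and 2 fell. The gene that fell with TMM did not meet the rule for naming given below. The interferon genes IFNB1 and IFNG, named after their values were seen, had 0 counts in every library, and IFNL1 had 0, 16, 0 and 9 counts in siControl, siControl + kahweol, siCTGF and siCTGF + kahweol cells.

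**Figure D4:**
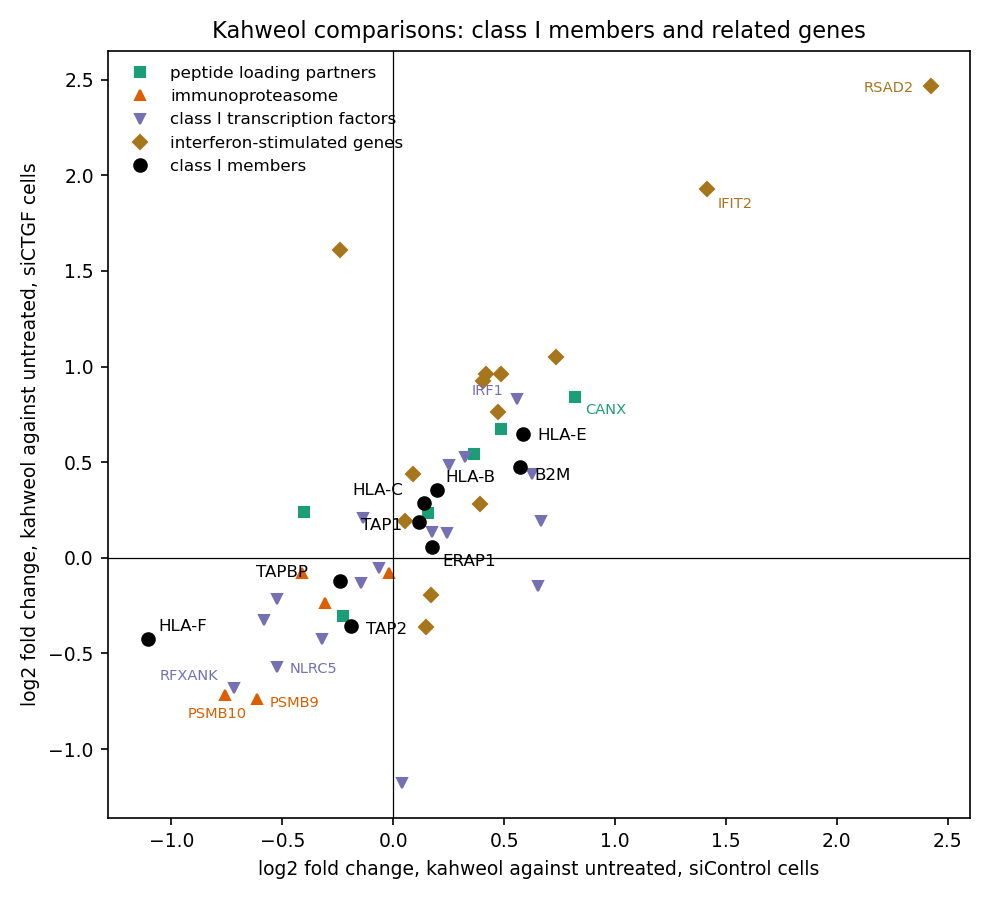
Log2 fold change of TMM-scaled counts for kahweol against untreated in siControl cells (x) and siCTGF cells (y), each point 1 gene. Black circles are the class I members and colored symbols are genes of 4 related lists. HLA-E and B2M lie in the upper right with CANX and IRF1, and PSMB9, PSMB10, NLRC5 and RFXANK lie in the lower left.

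Class I-like molecules also split. Of 11 tested, 5 rose and 4 fell, and the same counts were found with total counts. The NKG2D ligands ULBP3 and RAET1G rose by 1.03 ± 0.10 and 1.08 ± 0.21, and MICA and MICB by 0.46 ± 0.10 and 0.53 ± 0.09 (edgeR adjusted p = 0.000197, 0.00425, 0.00685 and 0.00281). RAET1E, of the same family, fell by 0.82 ± 0.15 (edgeR adjusted p = 0.00285). Of 12 class II pathway genes tested, 1 rose and 1 fell. CIITA, the class II transactivator and a relative of NLRC5, fell by 1.81 ± 0.39 (edgeR adjusted p = 0.00673), and CD74, the invariant chain, rose by 0.31 ± 0.11 (edgeR adjusted p = 0.0454), a call absent with total counts. Of 4 class I pseudogenes tested, 1 rose, HLA-H, by 0.31 ± 0.09 (edgeR adjusted p = 0.0285), and 0 rose with total counts. Of 5 leukocyte markers tested, 0 passed, and of 8 markers chosen for this line, 1 rose and 3 fell. AXL of the line markers and LYZ of the leukocyte markers lay under a fold of 0.7 in both kahweol comparisons, as 18.2% of all genes did. For CTGF knockdown, edgeR with TMM called 0 genes in these lists, and so did the fits without a filter and without the covariate. ULBP3 and IFI44 passed in the other 5 versions of the fit. In DESeq2 ULBP3 was at -0.71 ± 0.17 (adjusted p = 0.00413) and IFI44 at 0.61 ± 0.12 (adjusted p = 0.000385), and 1 to 3 interferon-stimulated genes passed per version. ULBP3 lay under a fold of 0.7, and IFI44 and RSAD2 exceeded 1.3, in both siCTGF comparisons.

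As the members went in both directions, their mean profile over the 4 libraries was nearly flat. The 5 protein-coding genes closest to that mean, out of 9460 compared by distance of centered log2 CPM, were DNPEP, RUFY1, GRINA, NR1H2 and LRPAP1, at distances of 0.0132 to 0.0245 beside a median of 0.443. The members themselves lay farther from their own mean, from 0.116 for ERAP1 to 0.897 for HLA-F. The 9 genes did not share a single pattern across the 4 conditions.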

How the data were processed

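From MDA-MB-231 cells, 4 libraries (rRNA-depleted, stranded, paired-end) were sequenced, 1 per condition, and groups were taken from the labels. According to the submitters' processing notes, FastQC 0.11.7, Trimmomatic 0.38, HISAT2 2.1.0, Bowtie2 2.3.4.1 and StringTie 2.1.3b were used with GRCh37.p13. The strand setting and the handling of reads with several placements are not given in the sources used here. The estimated counts per gene were deposited by the authors as whole numbers without normalization. TPM and FPKM, as deposited, come from the authors' StringTie run, and FPKM was not tested. The coverage signal, also deposited by the authors, was used only to check the counts, which came to 106 to 108 aligned bases per count (reads of 100 bases), so counting intervals took 2 reads as 1 fragment.

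The filter kept genes averaging 10 counts or more per library. Counts were scaled by TMM (edgeR 4.0.16, R 4.3.3), and log2 fold changes used a prior count of 2. The additive fit used edgeR glmQLFit and glmQLFTest on all genes kept, with Benjamini-Hochberg adjustment over all of them and a threshold of 0.05. That test reports no SE, so each edgeR SE was derived as the absolute log2 fold change divided by the square root of the F statistic. DESeq2 1.42.0 and limma 3.58.1 (voom) were alternatives, with other scalings, filters, pseudocounts and folds. Total counts and TMM over protein-coding genes were added to the additive fit after the data were seen. The edgeR fit was tested on simulated data with few changed genes and no interaction of siRNA and kahweol. That test does not show how the fit behaves with as many changes as kahweol gave here. Folds of 1.3 and 0.7 follow the study. Genes outside the members were named if past these folds in both comparisons of a factor (up to 3 per list, mean count of at least 50) or among the 3 most abundant of a list. The members and lists were chosen with earlier results of these data known. Promoter windows came from RefSeq on GRCh38.p14, and no coordinates were exchanged between builds. Total counts were 59129784, 44781516, 51830429 and 47276653 in siControl, siControl + kahweol, siCTGF and siCTGF + kahweol. A few genes of the context lists are counted but not reported here by name.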

Additional observations from a re-analysis of the deposited data

How the results depend on the processing

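No paired analysis was possible because each condition had 1 library and no replicate numbers to pair, and the siRNA covariate of the additive fit, which sets kahweol against untreated within each siRNA, stands in its place. Of 128 summary values recomputed under alternatives, 103 stayed within the limit set for no change, 23 moved and 2 changed sign by more than that limit. For medians the limit was the counting error, so a median near 0 could change sign within it. The siCTGF median of the members in untreated cells went from 0.039 to -0.016 with log2(TPM + 1) and to -0.011 without the 4 HLA genes. In kahweol-treated cells it went from 0.059 to -0.022 with log2(TPM + 1). With log2(TPM + 1) the median log2 fold change of the members with kahweol went below 0, to -0.0918 in siControl and -0.0773 in siCTGF cells, but that scaling put the median of all genes at -0.17 and -0.18, so the members stayed 0.08 and 0.10 above it. With total counts these medians were 0.0048 and 0.036, and without the 4 HLA genes the siCTGF value was 0.055. Members over 1.3 with kahweol in siControl cells numbered 0 with either TPM pseudocount (1 or 0.1) and 1 at a fold of 1.5. In siCTGF cells they numbered 1 with total counts, either TPM pseudocount or a fold of 1.5, and members under 0.7 numbered 1 with total counts and 2 with either TPM pseudocount. The single member over 1.3 with siCTGF in kahweol-treated cells was lost, giving 0, with either TPM pseudocount and at a fold of 1.5. Members called for kahweol fell to 3 (HLA-E, HLA-F and B2M) without the covariate. Over all genes, the siCTGF effect gave 21 calls, and 128 with DESeq2, 60 with limma-voom, 75 with DESeq2 size factors, 81 with total counts, 182 with TMM over protein-coding genes and 0 without the covariate (edgeR, 47 genes at an unadjusted p under 0.05). Leaving out each library in turn left 3 and no replicate, so only values result. The median kahweol effect of the members ranged from 0.14 to 0.19 and the median siCTGF effect from 0.04 to 0.06, against 0.15 and 0.11 with all 4. These ranges repeat the medians of the single pairs of libraries given above, so they are no further check. The causes of the other shifts were not tested.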
